A study of Homo sapiens with 10 samples.

Results

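A set of 10 genes that mark the epithelial and the mesenchymal state of a cell was followed in irradiated human kidney tubule cells. The genes were taken from the count table by symbol, 10 of its 61587 rows, and comprise 4 cadherins (CDH1, CDH2, CDH6 and CDH16), the epithelial adhesion molecule EPCAM, the filament protein vimentin (VIM), the matrix protein fibronectin (FN1) and the transcription factors SNAI2, ZEB1 and TWIST1. Of these, 9 were among the 19006 genes with enough counts to be tested and TWIST1 was not.

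The cells were RPTEC/TERT1, a line of human renal proximal tubular epithelial cells kept dividing by introduced telomerase. Bulk RNA-seq of polyA RNA was performed on 5 samples exposed to 10 Gy of irradiation and 5 mock-irradiated control samples (0 Gy), all taken 7 days later, and each group holds replicates 1 to 5. All samples came from a single line, and the sources used here do not state that replicates were separate cultures, so p-values measure only the spread between these samples. Cells of the line carried PAX8 and ANPEP at 468 CPM or more and 188 CPM or more in every sample, whereas the mature proximal tubule genes LRP2 and HNF4A had 17 and 12 counts over all 10 samples.

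Cadherins are transmembrane proteins that bind the same cadherin on a neighbouring cell and are anchored to actin through catenins. In an epithelial-mesenchymal transition, factors of the SNAI, ZEB and TWIST families repress E-cadherin and other epithelial genes, while N-cadherin, vimentin and fibronectin increase. The proximal tubule is unusual among epithelia in that it normally carries N-cadherin and cadherin-6, and injured tubules can take up some mesenchymal genes without leaving the epithelium.

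Levels are CPM, in which each gene's count is divided by its sample's total after TMM scaling. Differences are fitted log2 fold changes, irradiated over control, with their standard error (SE). Adjusted p-values come from the quasi-likelihood test of edgeR, corrected by Benjamini-Hochberg over all genes tested, and replicate number was a block in the model. Depth ran from 66269311 to 131555873 counts per sample. In bulk samples, fewer cells that carry a transcript and less of it per cell cannot be told apart. CDKN1A, which encodes the cell cycle inhibitor p21 and served as a check of the treatment, was at 584 to 768 CPM in irradiated and at 66.7 to 208 CPM in control samples. Control replicates 1 and 3 were lower than the other controls for MKI67, a marker of dividing cells, at 76.7 and 60.4 CPM against 217 to 234, and irradiated samples lay between 15.3 and 29.6. The 10 cell cycle genes listed, MKI67 included, were all lower at an adjusted p under 0.05 (22.7% of all genes tested were). Groups did not overlap for 8 of them (26.7% of all genes tested in either direction). MCM5, also on this list, was higher after irradiation in replicate 3, at 26.7 against 23.4 CPM. Leukocyte markers (6 genes) summed to 0.622 to 0.966 CPM in control and 0.882 to 1.37 CPM in irradiated samples, and 2 of them were tested. The sum can be too low, because 85.6% of the exon length of CD68 lies under other genes, where reads can be lost to the count. CD14, a monocyte receptor, was higher without overlap, at 0.196 to 0.336 CPM in control and 0.414 to 0.659 CPM in irradiated samples (log2 fold change 1.09, SE 0.13, adjusted p = 0.000479). PTPRC, which marks leukocytes as a class, was at 0.185 to 0.453 and 0.269 to 0.540 CPM (adjusted p = 0.283), LYZ and CD79A had at most 10 and 14 counts in a sample, and the T cell gene CD3E had none in control samples and at most 1 in an irradiated sample. The 10 proximal tubule markers summed to 1047 to 1137 CPM in control and 1154 to 1470 CPM in irradiated samples.

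At an adjusted p-value under 0.05, 6 of the 9 tested genes were higher after irradiation (CDH2, CDH6, VIM, FN1, SNAI2 and ZEB1), where 23.9% of all genes tested were higher. CDH1 and CDH16 were lower, and 22.7% of all genes tested were. EPCAM did not pass. The values of irradiated and control samples did not overlap for 5 of the 9 genes, compared with 26.7% of all genes tested in either direction. The median log2 fold change of the 9 was 0.43 and that of all genes tested -0.01. Changes were in the same direction in all 5 replicate pairs for 7 of the 9, the exceptions being CDH1 and EPCAM. The share of all genes tested for which this holds was not computed, so the count has no background to be read against.

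**Figure D1:**
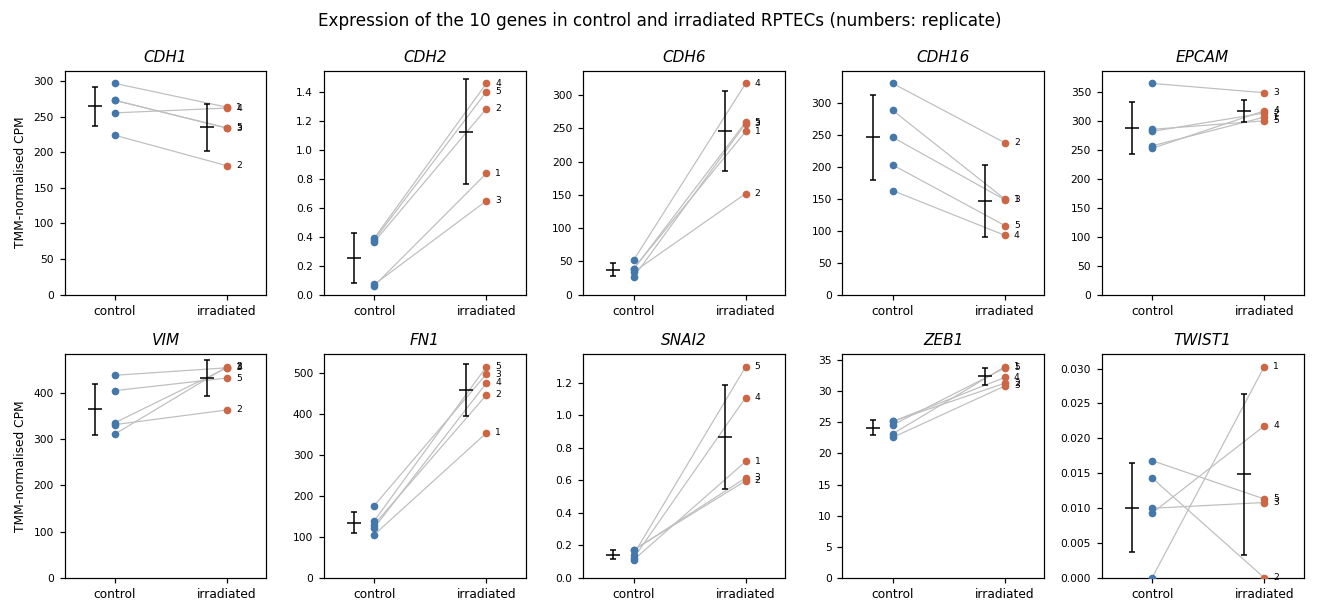
TMM-normalised CPM of each of the 10 genes in control (blue) and irradiated (orange) samples, with grey lines joining samples of the same replicate number and black bars giving mean and SD of 5 samples; every vertical axis starts at 0 and has its own scale. CDH2, CDH6, FN1, SNAI2 and ZEB1 show no overlap between groups, whereas CDH1, CDH16, EPCAM and VIM overlap and TWIST1 rests on 13 counts in all.

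Promoter sequences are shown for 3 of the genes that rose, because each holds a match to at least 1 of the 3 motifs searched. RefSeq promoters on GRCh38.p14 were held for 4 of the 10 genes (CDH2, VIM, FN1 and ZEB1), some with several starts. The 250 bases before each start were searched on both strands. CAGGTG (or its reverse complement CACCTG) is the E-box bound by SNAI and ZEB factors. TGANTCA is a loose form of the AP-1 motif TGA(C/G)TCA, with any base allowed at its centre. TGACGTCA is the cyclic AMP response element bound by CREB and ATF factors. Capitals mark the matches, none of which overlaps another, and sequences read 5′ to 3′ on the strand of the gene.
FN1 (chr2:215436069-215436318, minus strand): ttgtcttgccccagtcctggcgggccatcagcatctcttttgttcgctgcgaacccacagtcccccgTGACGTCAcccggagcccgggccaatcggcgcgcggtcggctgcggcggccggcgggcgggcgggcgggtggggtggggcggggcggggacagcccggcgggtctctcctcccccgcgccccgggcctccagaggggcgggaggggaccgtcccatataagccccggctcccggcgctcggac
CDH2, internal start (chr18:28036642-28036891, minus strand): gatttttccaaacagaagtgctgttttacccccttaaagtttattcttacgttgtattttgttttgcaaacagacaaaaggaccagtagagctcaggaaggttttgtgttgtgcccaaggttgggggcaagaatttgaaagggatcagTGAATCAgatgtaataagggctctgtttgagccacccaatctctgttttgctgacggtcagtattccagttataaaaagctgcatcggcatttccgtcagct
ZEB1, most upstream start (chr10:31318167-31318416, plus strand): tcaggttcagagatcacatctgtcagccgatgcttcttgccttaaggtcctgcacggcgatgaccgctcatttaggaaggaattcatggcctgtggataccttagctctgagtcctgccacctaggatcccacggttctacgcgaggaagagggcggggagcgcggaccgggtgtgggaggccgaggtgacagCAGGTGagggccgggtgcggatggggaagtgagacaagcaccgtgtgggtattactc

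The FN1 window holds 1 TGACGTCA, with its first base 183 bases before the start, and 1.65% of 35116 windows of this length hold that motif. GENCODE places the start of the divergent gene FN1-DT in the upstream end of this window and the outermost bases of the first FN1 exon in its last bases. In CDH2 the TGANTCA match reads TGAATCA, which lies outside the stricter form TGA(C/G)TCA. Its first base lies 102 bases before an internal start in an intron of the gene. TGANTCA, with any centre base, is held by 6.57% of windows. The other CDH2 window, that of VIM and 5 of the 7 ZEB1 windows hold none of the 3 motifs. The most upstream ZEB1 start has an E-box with its first base 57 bases before it, in sequence that GENCODE also places in exons of the antisense gene ZEB1-AS1. A further ZEB1 start has 2 E-boxes, at 242 and 85 bases. Of all windows 17.49% hold at least 1 E-box, but with 7 windows ZEB1 was searched more often, and of the 30 genes with as many windows 56.7% hold an E-box in at least 1 of them. These matches describe the letters of the windows, and binding was not measured in these samples.

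CDH1 (ENSG00000039068, chromosome 16, 68737292 to 68835537 of GRCh38) encodes E-cadherin, the main adhesion molecule of epithelial adherens junctions. It stood at 297, 224, 273, 256 and 273 CPM in control replicates 1 to 5. Irradiated replicates 1 to 5 stood at 263, 181, 234, 262 and 234 CPM. Both samples of replicate 2 were the lowest of their group, replicate 4 was slightly higher after irradiation, and the groups overlapped. The means were 264.5 ± 27.0 and 235.0 ± 33.4 CPM (SD, n = 5 each), and the log2 fold change was -0.18 (SE 0.06, adjusted p = 0.0346). This call did not hold without replicate 1, 2, 3 or 5 (adjusted p of 0.0854, 0.103, 0.0776 and 0.124) or without the replicate block (0.233).

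CDH16 (ENSG00000166589, chromosome 16, 66908122 to 66918917) encodes kidney-specific cadherin, a protein of the basolateral membrane of tubule cells. Control replicates 1 to 5 held 246, 330.1, 288, 163 and 203 CPM. After irradiation the values were 148, 237, 149, 92.5 and 108 CPM. Replicate 2 was highest and replicate 4 lowest in both groups, so that the groups overlapped although CDH16 fell in all 5 pairs. The fall was 1.71-fold, from 245.8 ± 66.5 to 146.9 ± 56.2 CPM (SD, n = 5 each), with a log2 fold change of -0.78 (SE 0.07, adjusted p = 0.000143). Without the replicate block the adjusted p was 0.0367. Replicate 2 was also the highest of both groups for SLC12A1, the salt cotransporter of the thick ascending limb, at 399.5 CPM (the other controls 99.9 to 149) and 171 CPM (the other irradiated samples 17.3 to 46.4). SLC12A1 made up most of the summed level of 8 markers of other nephron segments, 101.7 to 401.6 CPM in control and 18.8 to 172.1 in irradiated samples, and its part in the CDH16 difference was not tested. SLC12A1 fell (log2 fold change -1.80, SE 0.16, adjusted p = 0.000121), with an adjusted p of 0.0594 without the replicate block. Of the other markers, SLC12A3 and CALB1 did not pass (adjusted p of 0.0778 and 0.316), AQP2 had at most 32 counts in a sample, and UMOD had none in any.

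EPCAM (ENSG00000119888, chromosome 2, 47345158 to 47387601), an adhesion molecule found on most simple epithelia, had 257, 282, 365, 253 and 286 CPM in control replicates 1 to 5 and 307, 314, 349, 318 and 301 CPM in irradiated replicates. Replicate 3 was the highest in both groups, and it was the only pair in which the irradiated sample was lower. With means of 288.7 ± 45.2 and 317.7 ± 18.8 CPM (SD, n = 5 each), the log2 fold change was 0.15 (SE 0.06, adjusted p = 0.0886). Without replicate 3 it was 0.21 (adjusted p = 0.0173), the only 1 of 13 fits in which EPCAM passed.

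CDH6 (ENSG00000113361, chromosome 5, 31193686 to 31329146) encodes cadherin-6, or K-cadherin, which is expressed in the developing nephron and the proximal tubule. Its control values were 38.9, 33.8, 26.0, 51.6 and 38.0 CPM in replicates 1 to 5. Irradiated values were 245, 152, 257, 317 and 259 CPM. The lowest irradiated sample, replicate 2, was still 4.49-fold above its own control, and within pairs the ratio reached 9.87. Means were 37.7 ± 9.3 in control and 246.2 ± 59.7 CPM in irradiated samples (SD, n = 5 each), and CDH6 rose 6.51-fold, fitted as a log2 fold change of 2.70 (SE 0.14, adjusted p = 2.13e-05). Among the 9 tested genes this was the largest change, although its distance from that of SNAI2 (2.54, SE 0.26) was smaller than the standard error of the latter.

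CDH2 (ENSG00000170558, chromosome 18, 27932879 to 28177946) encodes N-cadherin, the cadherin of mesenchymal and neural cells that is also found in the proximal tubule. It was close to the limit of detection in control samples, with 5, 51, 7, 42 and 45 counts in replicates 1 to 5. Irradiated samples had 83, 86, 60, 134 and 124 counts. As CPM these were 0.0612, 0.365, 0.0698, 0.390 and 0.378 in control samples and 0.838, 1.28, 0.648, 1.46 and 1.40 in irradiated samples. Replicates 1 and 3 were the lowest of both groups, and they are the controls in which MKI67 was low. Whether this difference among controls bears on CDH2 was not tested. CDH2 rose 4.69-fold (log2 fold change 2.23, SE 0.26, adjusted p = 0.000411), and within pairs the log2 ratio was 3.78 and 3.22 in replicates 1 and 3 and between 1.82 and 1.90 in the others. The fitted change was between 2.05 and 2.37 in all 13 fits, each past the threshold.

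The balance between N- and E-cadherin was compared within each library, where the scaling of libraries cancels. The log2 ratio of CDH2 to CDH1 counts increased by 3.95, 2.12, 3.44, 1.87 and 2.11 in pairs 1 to 5, with a mean of 2.70 ± 0.93 (SD, n = 5 pairs). E-cadherin nevertheless remained in large excess. Per kilobase of exon, CDH1 exceeded CDH2 by 867 to 6858 times in control and by 199 to 510 times in irradiated samples. For CDH6, the same length-scaled ratio to CDH1 was 0.0466 to 0.0986 in control and 0.409 to 0.591 in irradiated samples. Its ratio to CDH16 moved from between 0.0261 and 0.0915 to between 0.185 and 0.990. In irradiated replicate 4 the 2 genes were thus almost equal per kilobase of merged exon. Before length scaling CDH6 was at 317 and CDH16 at 92.5 CPM there. The lengths of the transcripts expressed were not measured.

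The place of these 4 genes in the whole cadherin repertoire was described by summing CPM per kilobase over 23 cadherin genes. CDH3, which encodes P-cadherin of basal epithelial cells and was not among the 10 genes, held the largest mean share in control samples at 38.9 ± 3.8% and 24.3 ± 2.7% after irradiation (SD, n = 5 each). In control replicate 2, CDH16 held more, at 39.5% against 32.1% for CDH3. The share of CDH6 was 1.38 ± 0.45% in control samples and 11.7 ± 3.4% in irradiated samples, with no overlap (0.863% to 2.09% and 6.64% to 15.8%). CDH16 held 30.2 ± 6.4% and 23.5 ± 7.6%. CDH1 held 19.5 ± 2.3% and 22.6 ± 4.0%. The sum itself was 198.2 to 242.6 CPM per kilobase in control and 156.8 to 183.9 in irradiated samples. N-cadherin remained a trace component at no more than 0.105% in any sample. Shares of a sum move together and were given no test.

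**Figure D2:**
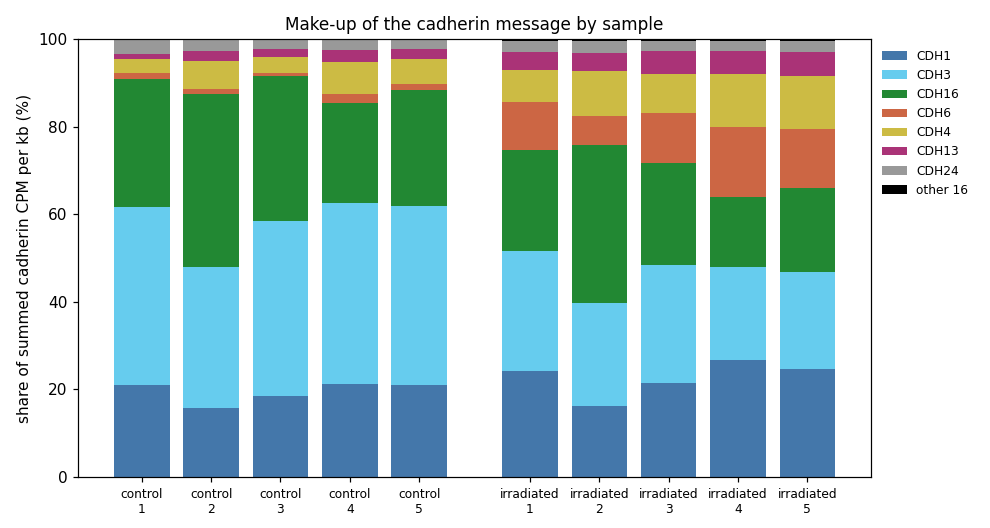
Share of each cadherin gene in the summed CPM per kilobase of 23 cadherin genes (vertical axis, %) in each of the 5 control and 5 irradiated samples. The orange band of CDH6 is 0.863% to 2.09% of the bar in control and 6.64% to 15.8% in irradiated samples, while the light blue band of CDH3 narrows from 32.1% or more to 27.4% or less.

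Among the other 24 classical, atypical and related cadherin genes listed, 12 were tested, of which 5 were higher and 2 lower after irradiation. Of all genes tested, 23.9% were higher and 22.7% lower. The median log2 fold change of the 12 was 0.21 (-0.01 over all genes tested). CDH3 fell from 556.2 ± 58.5 to 268.6 ± 45.2 CPM (SD, n = 5 each; log2 fold change -1.06, SE 0.08, adjusted p = 6.99e-05), in all 5 pairs and without overlap. CDH5, the VE-cadherin of endothelium, was at 0.361 to 0.984 CPM in control and 1.85 to 4.24 CPM in irradiated samples (log2 fold change 2.48, SE 0.26, adjusted p = 0.000255). Of 6 endothelial markers, CDH5 included, 3 were tested and 2 were higher, the other being PECAM1 (0.860 ± 0.282 and 1.40 ± 0.31 CPM, adjusted p = 0.00519), while VWF did not pass (adjusted p = 0.965). The summed level of the 6 markers was 1.32 to 2.45 CPM in control and 4.20 to 6.09 in irradiated samples. CDH5 alone contributed 0.361 to 0.984 and 1.85 to 4.24 CPM to these sums. KDR had 2 counts in all, none of them in irradiated samples. The part of other cell types in the CDH5 difference was not tested. Rises were also found for CDH13 (T-cadherin, which is held by a lipid anchor; log2 fold change 0.88, SE 0.11, adjusted p = 0.00055) and CDH4 (R-cadherin; 0.65, SE 0.09, adjusted p = 0.00104). CDH24 was lower (-0.42, SE 0.08, adjusted p = 0.00514), with an adjusted p of 0.0609 without the replicate block.

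Among 15 partners of cadherins in the adherens junction (catenins, nectins and linked proteins), 13 were tested. Of these, 10 were higher and 1 was lower (23.9% and 22.7% of all genes tested), and the median log2 fold change was 0.27. NECTIN4, a nectin that binds other nectins across the junction, rose most of the 13, from 0.0963 ± 0.0317 to 2.51 ± 0.83 CPM (SD, n = 5 each; log2 fold change 4.68, SE 0.18, adjusted p = 8.62e-06), and NECTIN3 rose from 32.0 ± 5.0 to 58.9 ± 7.3 CPM (log2 fold change 0.89, SE 0.07, adjusted p = 6.36e-05). CTNNA2, the neural alpha-catenin, rose 3.56-fold from a low level of 0.170 ± 0.051 CPM (adjusted p = 0.00142). Its relative CTNNA3, below the minimum for testing, had 0 counts in every control and 4 to 9 counts in irradiated samples, with an adjusted p of 0.000783 when the minimum was lowered to 1 count. ARVCF, a catenin of the p120 family, had a log2 fold change of 0.73 (SE 0.05, adjusted p = 3.83e-05). The abundant catenins had smaller fitted changes. CTNNB1 (beta-catenin) was at 339.0 ± 15.4 and 352.9 ± 20.4 CPM (log2 fold change 0.06, SE 0.04, adjusted p = 0.291), and its sign turned in at least 1 of the 13 fits (-0.02 to 0.08). For CTNNA1 (alpha-catenin) the log2 fold change was 0.20 (SE 0.06, adjusted p = 0.0218), with the call lost in 4 of 13 fits, without replicate 1 or 4 (0.0685 and 0.0836), when scaled by library size alone (0.0951) and with a minimum of 1 count (0.0519). JUP (plakoglobin) had 0.21 (SE 0.07, adjusted p = 0.0347) and passed in 6 of 13 fits, failing without replicate 1, 4 or 5 (0.0692, 0.0968 and 0.0654), without the replicate block (0.0847), with either other scaling (0.0724 and 0.136) and with a minimum of 1 count (0.0524). AFDN (afadin), which ties nectins to actin, was the gene that fell (-0.31, SE 0.08, adjusted p = 0.0114). Of 12 desmosome genes 5 were tested, 1 was higher and 2 were lower (23.9% and 22.7% of all genes tested). Among them PKP4 had a log2 fold change of -0.42 (SE 0.04, adjusted p = 0.000246), PKP3 of 0.36 (SE 0.11, adjusted p = 0.0296, 0.0543 to 0.0881 without replicate 1, 2, 3 or 5 and 0.066 when scaled by library size alone) and DSP (desmoplakin), the most abundant, of 0.04 (SE 0.06, adjusted p = 0.586). DSC2, a desmosomal cadherin below the minimum, had 1 to 10 counts in control and 5 to 36 in irradiated samples, and with a minimum of 1 count its adjusted p was 0.000317.

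**Figure D3:**
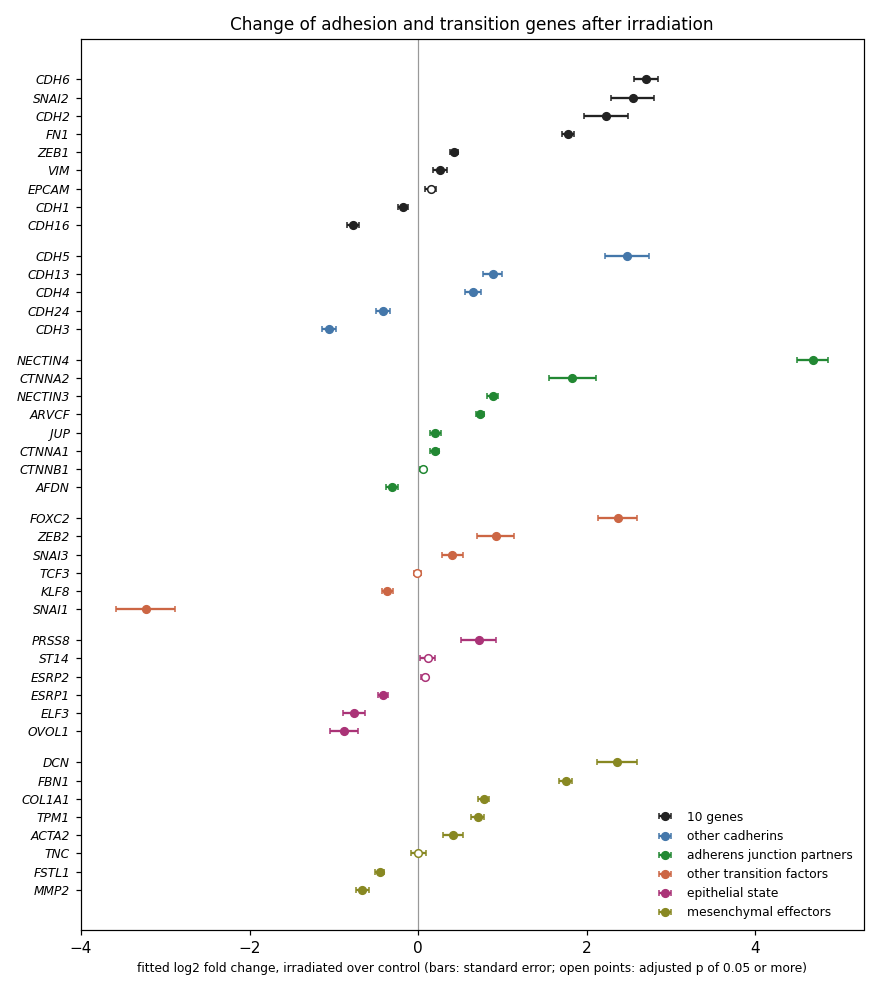
Fitted log2 fold change, irradiated over control (horizontal axis), with standard error for the 9 tested genes and for genes of 5 related lists; filled points passed an adjusted p of 0.05 and open points did not. Changes run from 4.68 for NECTIN4 to -3.23 for SNAI1, and CDH6, SNAI2, CDH2 and FN1 form the upper end of the 10 genes.

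FN1 (ENSG00000115414, chromosome 2, 215360440 to 215436073) encodes fibronectin, a glycoprotein of the extracellular matrix to which integrins bind. Control replicates 1 to 5 had 106, 130.3, 177, 122 and 139 CPM. Irradiated replicates had 354, 447, 498, 476 and 516 CPM. The highest control, replicate 3, reached no more than 177 CPM, well under the lowest irradiated sample, replicate 1. The mean rose 3.42-fold, from 134.8 ± 26.5 to 458.3 ± 63.7 CPM (SD, n = 5 each), with a log2 fold change of 1.77 (SE 0.07, adjusted p = 9.22e-06), the smallest adjusted p of the 9 genes. Ratios within pairs spanned a narrow range of 2.82 to 3.89.

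VIM (ENSG00000026025, chromosome 10, 17228241 to 17237593) encodes vimentin, the intermediate filament of mesenchymal cells that cultured epithelial cells also carry. Control replicates 1 to 5 stood at 336, 332, 312, 439 and 406 CPM. The irradiated samples stood at 455, 364, 457, 455 and 433 CPM. Irradiated samples were higher in all 5 pairs, but control replicates 4 and 5 lay above irradiated replicate 2, and the groups overlapped. The log2 fold change was 0.25 (SE 0.08, adjusted p = 0.0389), or 364.8 ± 54.5 against 432.9 ± 39.9 CPM (SD, n = 5 each). VIM passed in 7 of 13 fits and lost its call without replicate 1, 3 or 5 (adjusted p of 0.126, 0.0618 and 0.0526), without the replicate block (0.0865), with upper-quartile scaling (0.0646) and when scaled by library size alone (0.106). Exons of the opposite strand cover 24.6% of its exon length, where reads are lost to the count, so its level can be too low. The same limit holds for other genes named here, such as ACTA2 (36.0%), LYZ (34.7%), OVOL1 (27.3%), TPM1 (22.7%), PAX8 (22.4%) and CDH13 (21.4%).

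Effector genes of the mesenchymal state beyond these were listed, 23 in all, of which 14 were tested. Of these, 8 were higher and 2 lower (23.9% and 22.7% of all genes tested), with a median log2 fold change of 0.35. FBN1, the microfibril protein fibrillin-1, rose from 260.6 ± 53.6 to 874.1 ± 166 CPM (SD, n = 5 each; log2 fold change 1.75, SE 0.08, adjusted p = 1.27e-05), a change close to that of FN1. TPM1, an actin-binding tropomyosin, had 0.71 (SE 0.08, adjusted p = 0.000324) and COL1A1, a chain of type I collagen, 0.78 (SE 0.07, adjusted p = 0.000108). DCN, a small matrix proteoglycan, rose from a low level (log2 fold change 2.36, SE 0.24, adjusted p = 0.000201), with 0.110 to 0.522 CPM in control and 0.454 to 4.45 CPM in irradiated samples. ACTA2, the smooth muscle actin of myofibroblasts, was at 3.71 to 4.61 and 4.36 to 8.59 CPM (0.41, SE 0.12, adjusted p = 0.0212), a call that did not hold without replicate 4 or 5 (0.0544 and 0.0579) and without the replicate block (0.0692). MMP2, a gelatinase (-0.66, SE 0.07, adjusted p = 0.00031), and FSTL1 (-0.46, SE 0.06, adjusted p = 0.000498) fell. TNC, or tenascin-C, was at 1091 ± 198 and 1094 ± 233 CPM (adjusted p = 0.999). Markers of fibroblasts summed to 15.9 to 23.5 CPM in control and 28.6 to 40.1 CPM in irradiated samples over 7 genes, of which only COL1A1 and DCN were tested. COL1A1 alone reached 15.2 to 23.2 and 26.8 to 39.1 CPM, while PDGFRA and PDGFRB had at most 14 and 10 counts in a sample and LUM had 2 and COL3A1 4 counts over all samples, and the part of fibroblasts in these differences was not tested.

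SNAI2 (ENSG00000019549, chromosome 8, 48917598 to 48921740) encodes SLUG, a zinc finger repressor of E-cadherin. It was barely detected in control samples, with 9, 24, 17, 13 and 17 counts in replicates 1 to 5. Irradiated samples had 71, 40, 57, 102 and 115 counts. This corresponds to 0.110, 0.172, 0.169, 0.121 and 0.143 CPM in control and 0.717, 0.597, 0.616, 1.11 and 1.30 CPM in irradiated samples. The groups were well apart, and replicates 4 and 5 were the highest after irradiation. SNAI2 rose 5.83-fold (log2 fold change 2.54, SE 0.26, adjusted p = 0.000205), within pairs between 3.48-fold and 9.20-fold, from 0.143 ± 0.028 to 0.868 ± 0.318 CPM (SD, n = 5 each).

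ZEB1 (ENSG00000148516, chromosome 10, 31318495 to 31529814) encodes a repressor with zinc fingers and a homeodomain that acts on CDH1 and other epithelial genes. Its values were 23.2, 25.2, 22.6, 25.1 and 24.6 CPM in control replicates 1 to 5. After irradiation they were 33.9, 31.3, 30.9, 32.2 and 33.7 CPM. The spread within each group was small and the groups did not overlap. ZEB1 rose 1.34-fold, from 24.1 ± 1.2 to 32.4 ± 1.4 CPM (SD, n = 5 each; log2 fold change 0.43, SE 0.05, adjusted p = 0.000414). It passed in all 13 fits, with log2 fold changes from 0.35 to 0.46.

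TWIST1 (ENSG00000122691, chromosome 7, 19020991 to 19117636), a basic helix-loop-helix factor, had 0, 2, 1, 1 and 2 counts in control replicates 1 to 5 and 3, 0, 1, 2 and 1 counts in irradiated replicates. These 13 counts are below the minimum of 200 set for testing. When the minimum was lowered to 1 count, its log2 fold change was 0.39 (SE 1.12, adjusted p = 0.867). No difference was seen, and with an SE this wide a moderate change in either direction could be missed.

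Other transcription factors of the transition were mixed. Of 10 listed, 6 were tested, 3 were higher and 2 were lower (23.9% and 22.7% of all genes tested), with a median log2 fold change of 0.20. SNAI1, the closest relative of SNAI2, fell in all 5 pairs, with 12.5, 4.32, 10.9, 9.22 and 7.59 CPM in control replicates 1 to 5 and 0.979, 1.36, 0.540, 0.773 and 0.984 CPM in irradiated replicates. The fall was 9.41-fold (log2 fold change -3.23, SE 0.35, adjusted p = 0.00028). SNAI1 and SNAI2 thus changed in opposite directions in the same samples, and their length-scaled ratio (SNAI2 to SNAI1) went from between 0.00458 and 0.0207 to between 0.228 and 0.747. The log2 ratio of their counts increased by 5.79 ± 1.32 (SD, n = 5 pairs), higher in 5 of 5 pairs, and SNAI1 remained the more abundant per kilobase in every irradiated sample. FOXC2, a forkhead factor, rose from 0.331 ± 0.182 to 1.65 ± 0.09 CPM (log2 fold change 2.37, SE 0.23, adjusted p = 0.000187). ZEB2, the relative of ZEB1, stood at only 0.167 ± 0.059 and 0.315 ± 0.092 CPM (0.92, SE 0.22, adjusted p = 0.0108). SNAI3 had a log2 fold change of 0.41 (SE 0.12, adjusted p = 0.0291), which passed in 6 of 13 fits. It did not pass without replicate 1, 3 or 5 (0.0748, 0.0535 and 0.0919), with DESeq2 (0.0784), when scaled by library size alone (0.0614), with a minimum of 1 count (0.0582) or without the replicate block (0.0826). KLF8 fell (-0.37, SE 0.07, adjusted p = 0.00314), and the abundant factor TCF3 was at 108.2 ± 5.7 and 107.4 ± 3.0 CPM (adjusted p = 0.883).

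**Figure D4:**
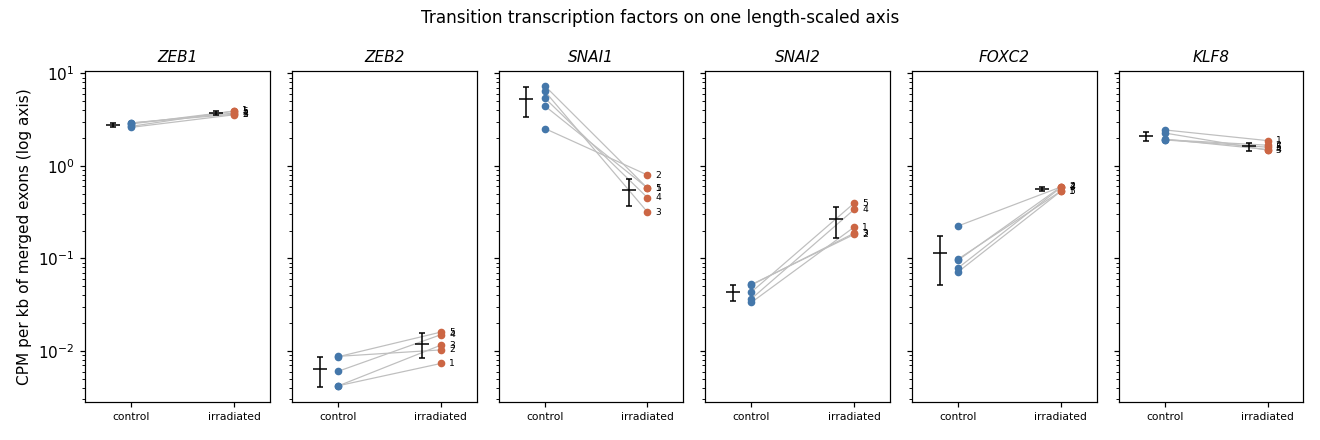
CPM per kilobase of merged exons (vertical log axis, the same for all panels) of 6 transition factors in control (blue) and irradiated (orange) samples, with lines joining replicate pairs and black bars giving mean and SD of 5 samples. SNAI1 lies below ZEB1 in every irradiated sample, while SNAI2 climbs from a mean of 0.0436 to 0.265 and approaches SNAI1 from beneath.

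Genes that maintain the epithelial state were called lower more often than higher. Of 13 listed, 11 were tested, 1 was higher and 5 were lower (23.9% and 22.7% of all genes tested), and the median log2 fold change was -0.02. ELF3, an epithelial ETS factor, fell from 153.5 ± 33.0 to 89.2 ± 8.2 CPM (SD, n = 5 each; log2 fold change -0.76, SE 0.13, adjusted p = 0.00256), and OVOL1, a zinc finger factor that opposes the transition, fell from 1.33 ± 0.61 to 0.687 ± 0.165 CPM (-0.88, SE 0.16, adjusted p = 0.00345). The splicing regulator ESRP1 had a log2 fold change of -0.42 (SE 0.06, adjusted p = 0.00114), whereas its relative ESRP2 had 0.08 (SE 0.05, adjusted p = 0.221). The gene that was higher was PRSS8 (prostasin), a membrane-anchored serine protease (0.72, SE 0.21, adjusted p = 0.0244). It rested on 80 to 388 counts per sample, passed in 9 of 13 fits and was lost without the replicate block (adjusted p = 0.371) and without replicate 1 (0.0701), replicate 4 (0.0651) or replicate 5 (0.0822). ST14 (matriptase), a membrane protease with the most counts of the list over all samples, was at 162.8 ± 32.4 and 173.8 ± 13.6 CPM (0.11, SE 0.09, adjusted p = 0.345). RBM47 had the highest mean of the list in control samples. It fell in all 5 pairs without overlap, from 177.2 ± 17.9 to 138.9 ± 4.7 CPM (-0.35, SE 0.07, adjusted p = 0.00473).

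Ordered by length-scaled level in control samples, the 10 genes ran from EPCAM at 119 ± 19 CPM per kilobase through VIM at 70.5 ± 10.5, CDH16 at 68.5 ± 18.5 and CDH1 at 43.5 ± 4.4 to FN1 at 7.83 ± 1.54, CDH6 at 3.03 ± 0.75, ZEB1 at 2.79 ± 0.14, SNAI2 at 0.0436 ± 0.0085, CDH2 at 0.0294 ± 0.0199 and TWIST1 at 0.00504 ± 0.00322 (SD, n = 5 each). The neighbours VIM and CDH16, CDH6 and ZEB1, and SNAI2 and CDH2 differed by less than the larger SD of each pair. After irradiation the order was EPCAM at 131 ± 8, VIM at 83.6 ± 7.7, CDH16 at 40.9 ± 15.7, CDH1 at 38.7 ± 5.5, FN1 at 26.6 ± 3.7, CDH6 at 19.8 ± 4.8, ZEB1 at 3.75 ± 0.16, SNAI2 at 0.265 ± 0.097, CDH2 at 0.131 ± 0.042 and TWIST1 at 0.00743 ± 0.00579 CPM per kilobase. Only CDH16 and CDH1 then differed by less than the larger SD of a neighbouring pair. The rank of the 10 length-scaled means was the same in both groups. In CPM without length scaling it was not, as FN1 lay under CDH1 in every control sample and above CDH1 in every irradiated sample. Per kilobase, levels of FN1 and CDH6 were nearer to those of CDH1 and CDH16 than before. The SNAI2 and CDH2 transcripts that rose 4.69-fold or more still lay under every epithelial gene of the set.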

How the data were processed

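Gene counts from bulk polyA RNA-seq of 10 samples were analysed. The authors aligned trimmed reads to GRCh38 with STAR, which also counted them, and the deposited values are whole-number read counts per gene without normalisation or filtering. The annotation release and strand setting of the counting are not given in the sources used here. Of protein-coding genes, 17 lie wholly under opposite-strand exons and all 17 had 0 counts, while 10.7% of 12742 without any overlap did, so counts are treated as unstranded, with reads in overlaps lost. The library kit is named differently in the labels and in the methods of the study. The cell line label carries a rising number over the samples, and the series design names RPTEC/TERT1 for all.

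Groups and replicate numbers were taken from the sample titles. Genes reaching 200 counts summed over samples, the minimum the study used, were tested with edgeR 4.0.16 in R 4.3.3 (TMM, glmQLFit and glmQLFTest, two-sided) with replicate number as a block, as in the model of the study. Benjamini-Hochberg adjustment ran over 19006 genes, with a threshold of 0.05. The SE is the log2 fold change over the square root of the F statistic. The same replicate number was treated as a pair, since deviations from the group means correlated across genes for each of the 5 numbers (0.231 to 0.571, and -0.463 to 0.479 for different numbers). No replicates of a group agreed within sampling noise (chi-square per gene at least 8.50), so each was kept as 1 sample. Replicates 4 and 5 were the closest pair in both groups (15.1 in control and 8.50 in irradiated samples, against 40.4 to 213 for all other pairs), and whether they are separate cultures is not given in the sources used here. Symbols, coordinates and merged exon lengths came from GENCODE release 44, and promoters from RefSeq tables on GRCh38.p14. The main fit was tested on simulated data with known changes in a small part of the genes and no replicate effects. That test does not cover the replicate block or changes as broad as those found here.

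The 10 genes and all lists were chosen with earlier results of these data known and are described by counts, with 1 further gene not reported here. From each of the 6 adhesion and transition lists, genes past the threshold with a log2 fold change beyond 1 are named, otherwise the 2 largest called and the most abundant. Markers of other cell types are named where a sample holds 10 or more counts. CDH4, CDH13, CDH24, the catenins other than CTNNA2, NECTIN3, AFDN, CTNNA3, DSC2, SNAI3, ZEB2, KLF8, TCF3, ESRP1, ESRP2, RBM47, PRSS8, TPM1, COL1A1, ACTA2, TNC, FSTL1, MMP2 and MKI67 were named after their values were seen. Alternatives were DESeq2 1.42.0, limma-voom (limma 3.58.1), upper-quartile scaling, scaling by library size alone, the filterByExpr filter, a minimum of 1 count, no replicate block and each replicate left out in turn. Figures were drawn with matplotlib 3.10.9.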

Additional observations from a re-analysis of the deposited data

Results flagged for a closer look

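Samples far from the rest of their group were sought with Dixon's criterion. Among 108 groups of 5 values it picked out 13, and chance alone would pick out 5.4, or a share of 0.05. Values of one sample are not independent of each other. Among the 10 genes, only VIM met it, with irradiated replicate 2 at 363.8 CPM against 432.9 to 457.4 in the other irradiated samples. The same sample was low for TPM1 at 1247 CPM (others 1624 to 1729) and high for DCN at 4.45 (others 0.454 to 1.61) and ACTA2 at 8.586 (others 4.363 to 5.224). SLC12A1 was high in replicate 2 of both groups, at 399.5 CPM in control (others 99.9 to 149) and 170.9 in irradiated samples (others 17.3 to 46.4). The depth of irradiated replicate 2, 66269311 counts, was the lowest of all samples. Control replicate 3 was high for CDKN1A at 207.6 CPM (others 66.7 to 80.9) and AFDN at 205.1 (others 161.5 to 169.2), and low for SNAI3 at 0.6081 (others 0.938 to 1.015). Irradiated replicate 3 was high for ESRP1 at 33.94 CPM (others 23.0 to 25.1) and TNC at 1494 (others 913.1 to 1080). Control replicate 2 was high for FOXC2 at 0.651 CPM (others 0.208 to 0.286), and control replicate 1 was low for CDH13 at 30.46 (others 52.1 to 58.7). No explanation of these values was tested.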

How the results depend on the processing

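Of the 9 tested genes, CDH2, CDH6, CDH16, FN1, SNAI2 and ZEB1 kept their direction and stayed past the threshold in all 13 fits, while CDH1 passed in 8, VIM in 7 and EPCAM in 1. In paired form, with the replicate block, 2 of the genes were lower after irradiation, and without the replicate block 1 was. Leaving out each replicate in turn gave 1 to 2 lower genes, the gene lost being CDH1 without replicate 1, 2, 3 or 5. The mean increase of the CDH2 to CDH1 ratio was between 2.385 and 2.905 with 1 pair left out. When scaled by library size alone, 37.98% of all called genes were higher, compared with 51.37% under TMM and 44.88% under upper-quartile scaling, and the median over all genes was -0.09 on the log2 scale. CTNNB1, DSP, TCF3, ESRP2, TNC and VWF, none of which passed in any fit, had log2 fold changes on both sides of 0. ZEB2 was below the minimum in 4 of the 13 fits. The cause of the lost calls was not tested. Depth limits the values of TWIST1, CDH2 and SNAI2, which rest on few counts per sample.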
